A study of Saccharomyces cerevisiae with 20 samples.

Results

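The ergosterol biosynthesis enzymes described here are 10 genes of budding yeast, ERG1, ERG2, ERG3, ERG5, ERG6, ERG10, ERG11, ERG25, HMG1 and HMG2, out of 6679 in the table. They were taken by their systematic names. All 10 were measured in every library and passed the filter on low values. Ergosterol is the main sterol of fungal membranes and plays the part that cholesterol plays in animals. The pathway starts from acetyl-CoA, runs through mevalonate and farnesyl diphosphate to squalene, closes the sterol rings to give lanosterol, and then trims and desaturates lanosterol into ergosterol. Several of its enzymes need molecular oxygen and haem, and their genes are known targets of the sterol-sensing factors Upc2 and Ecm22 and of the haem-dependent factor Hap1.

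The cells were Saccharomyces cerevisiae of the SK1 background growing exponentially in rich YEPD medium with aeration, at 30C or at 37C, and given cycloheximide for 1 minute before harvest. In DED1 cells the DED1 regulatory regions drove the DED1 coding sequence, and in DBP1 cells the same regions drove DBP1 in its place. Both genes encode RNA helicases of the DEAD-box family, paralogs that act in translation initiation. Polyadenylated mRNA and ribosome footprints were sequenced from 3 cultures of each strain at 30C and 2 at 37C, which gave 10 libraries of each kind. The study asked about helicase specificity and about effects that vary with temperature.

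Levels are RPKM, reads scaled to gene length and library depth, as mean ± SD over the 3 or 2 cultures of a group, and the translation efficiency of a culture is its footprint RPKM over its mRNA RPKM. Differences are on the log2(RPKM + 1) scale with 95% confidence intervals, and an enzyme is said to have risen or fallen where limma's p-value, adjusted over all genes tested by the Benjamini-Hochberg method, was under 0.05. Libraries held 3.94 to 9.69 M mRNA reads or 4.82 to 9.39 M footprint reads, and the enzymes had between 226 reads (HMG2 mRNA) and 13733 reads (ERG2 mRNA) in a library. The labels number the replicates but do not say how they were grown, so p-values measure the spread between these cultures, which may be technical. Library codes end in A to F at 30C and in G, H, K and L at 37C. Whether the libraries of each temperature were made apart is not stated. If so, that cannot be told apart from temperature. Each library was scaled to its own total, so a change in all mRNA together would not be seen, and fewer expressing cells cannot be told apart from less RNA per cell. DED1 mRNA was 40.9 to 54.2 RPKM in the 5 DED1 cultures and 0.0765 to 3.19 RPKM in the 5 DBP1 cultures, while DBP1 mRNA was 98.3 to 130 RPKM in DBP1 cultures and 3.64 to 6.5 RPKM in DED1 cultures. None of 8 genes of meiosis and sporulation, the other programme that SK1 cells enter readily, passed 18.6 RPKM in any mRNA library. Of the 4 tested in mRNA, 2 were called higher at 37C and 1, SPS4, lower in each strain. Of all genes, 43.1% were called higher in DED1 cells and 30.0% in DBP1 cells, and 10.3% and 13.1% lower. IME1, the inducer of meiosis, rose by 1.42 log2 units in DED1 cells and 1.91 in DBP1 cells (limma adjusted p = 0.00191 and 0.000526). The part of these genes in the results below was not tested.

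In DED1 cells at 30C the pathway was strongly expressed. Of the 10 enzymes, 8 had mRNA levels above the 90th percentile of the 6325 genes with any reads, whose median was 42.3 RPKM. The highest was ERG2 (YMR202W), the sterol isomerase that moves a double bond in the B ring, with 2040 ± 175 RPKM (SD, n = 3). ERG10 (YPL028W), the acetoacetyl-CoA thiolase that opens the pathway, followed with 963 ± 53.3 RPKM, apart from ERG2 in every culture. ERG3 (YLR056W), the C-5 sterol desaturase, and ERG25 (YGR060W), the C-4 methyl sterol oxidase, came next with 611 ± 63.8 and 589 ± 61.2 RPKM, and their cultures overlapped. ERG6 (YML008C), the sterol methyltransferase that makes the fungal side chain, had 456 ± 25.3 RPKM. ERG1 (YGR175C), the squalene epoxidase, had 405 ± 41.6 RPKM, and ERG11 (YHR007C), the cytochrome P450 that removes the C-14 methyl group of lanosterol and the target of azole drugs, had 395 ± 30.1 RPKM. These last 3 overlapped in part, ERG1 with both of its neighbours. ERG5 (YMR015C), the cytochrome P450 of the side chain, had 317 ± 30.4 RPKM, below every ERG11 culture.

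The 2 HMG-CoA reductase genes, which encode the rate-limiting step that makes mevalonate, stood lowest and far apart. HMG1 (YML075C) had 166 ± 20.2 RPKM of mRNA and HMG2 (YLR450W) 21.7 ± 2.45 RPKM (SD, n = 3), at the 81.2 and 32.2 percentiles of all genes. HMG2 made up 11.6 ± 0.28% of the summed mRNA RPKM of the pair and 14.6 ± 0.82% of their footprints. The genes are paralogs, and how reads shared by both were assigned is not given in the sources used here.

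**Figure D1:**
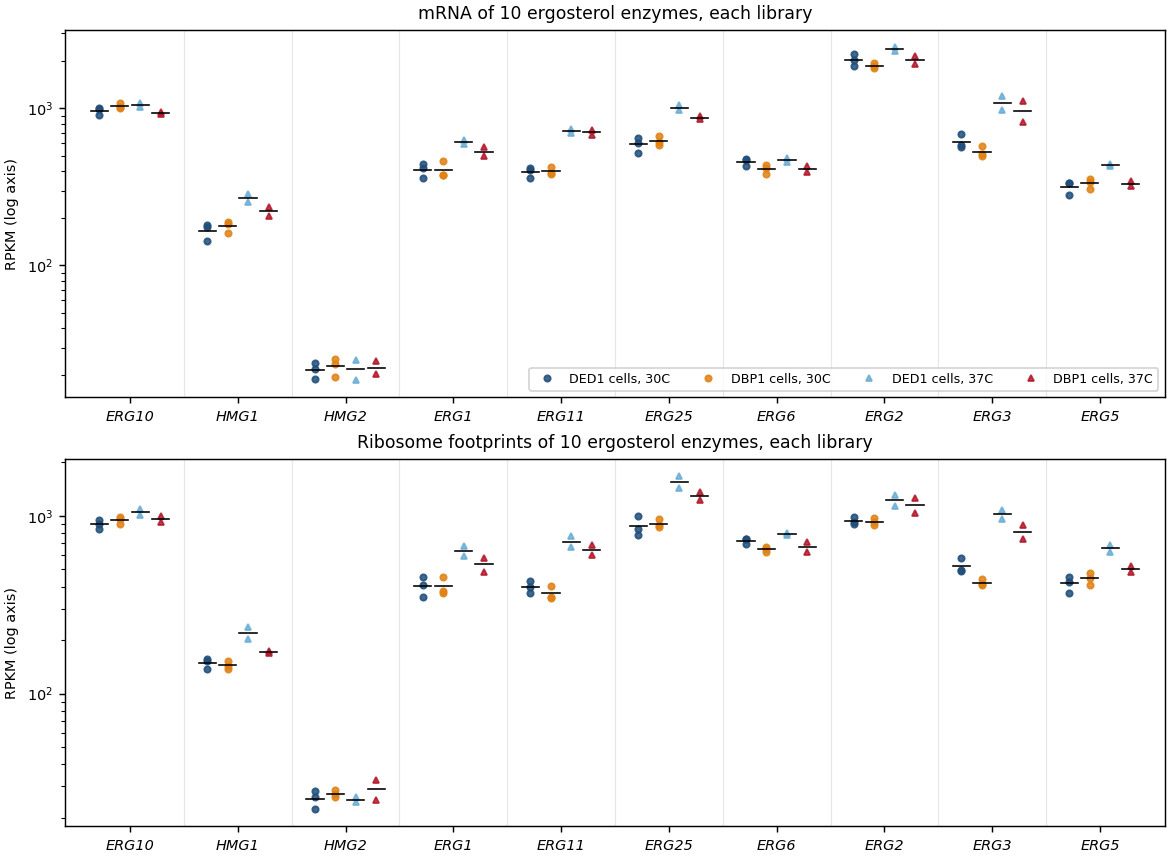
RPKM of mRNA (top) and ribosome footprints (bottom) on a log axis for each of the 10 enzymes, 1 point per library, coloured by strain and temperature, with 3 cultures per group at 30C and 2 at 37C. ERG2 mRNA lies highest, at 1813 to 2460 RPKM, and HMG2 lowest, at 18.6 to 25.5 RPKM, in every group.

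Ribosome load reordered the enzymes. In DED1 cells at 30C the translation efficiency of ERG6 was 1.59 ± 0.0251 and that of ERG25 was 1.48 ± 0.0713 (SD, n = 3), against a median of 0.654 over 4977 genes, which put them at the 92.8 and 91.4 percentiles. ERG5 followed with 1.32 ± 0.04 and HMG2 with 1.18 ± 0.00326. ERG2, the most abundant transcript, had the lowest efficiency at 0.462 ± 0.0276, the 25.4 percentile, and its cultures gave 0.494, 0.446 and 0.445. ERG2 footprints, at 939 ± 44.9 RPKM, lay in the range of those of ERG10, at 898 ± 50.5 RPKM, and of ERG25, at 875 ± 109 RPKM, although its mRNA was more abundant than theirs in every culture. Levels compared between genes rest on the authors' gene lengths and on how fully the reads of each gene were mapped, which was not tested.

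**Figure D2:**
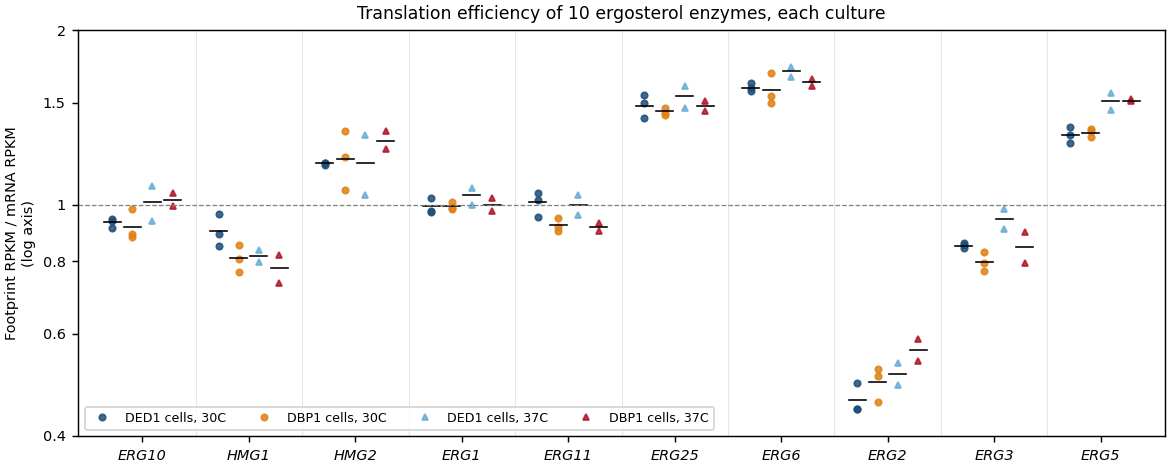
Translation efficiency, footprint RPKM over mRNA RPKM of the same culture, on a log axis for each enzyme, 1 point per culture, coloured by strain and temperature. ERG2 lies lowest, at 0.445 to 0.587 in all 10 cultures, while ERG6 and ERG25 lie at 1.41 to 1.73.

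At 37C, 7 of 10 rose in mRNA in DED1 cells and 4 of 10 in DBP1 cells, and none fell in either. The background was high: 43.1% of all genes tested were called higher at 37C in DED1 cells and 30.0% in DBP1 cells. Lower calls came to 10.3% and 13.1% of genes. In footprints 8 of 10 enzymes rose in DED1 cells and 5 of 10 in DBP1 cells, where 38.9% and 21.2% of all genes were called higher. None fell there either, where 13.6% and 17.6% of genes were called lower. The median difference over the 10 enzymes in mRNA was 0.53 log2 units in DED1 cells and 0.21 in DBP1 cells, beside 0.26 and 0.18 over all genes. In footprints it was 0.61 and 0.28, beside 0.21 and 0.10.

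In each of the 4 temperature comparisons the 3 enzymes with the largest rises were ERG11, ERG3 and ERG25. All 3 use oxygen, as ERG1 and ERG5 also do. ERG11 mRNA in DED1 cells was 417, 408 and 361 RPKM at 30C and 739 and 694 RPKM at 37C. In DBP1 cells it was 423, 385 and 383 RPKM at 30C and 733 and 672 RPKM at 37C. Every culture at 37C was above every culture at 30C, with rises of 0.86 log2 units in DED1 cells (95% CI 0.65 to 1.07, limma adjusted p = 0.00015) and 0.82 in DBP1 cells (0.61 to 1.03, 0.000167). Footprints on ERG11 rose by 0.84 and 0.81 log2 units (limma adjusted p = 0.000227 and 0.000354).

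ERG3 had the largest rise in footprints. They were 496, 577 and 487 RPKM in DED1 cells at 30C and 966 and 1082 RPKM at 37C, a rise of 0.98 log2 units (95% CI 0.74 to 1.22, limma adjusted p = 0.000113). In DBP1 cells they were 444, 409 and 411 RPKM at 30C and 737 and 884 RPKM at 37C, a rise of 0.94 (0.70 to 1.17, 0.000155). The groups did not overlap in either strain, and the differences stood at the 92.9 and 97.2 percentiles of all genes. ERG3 mRNA rose from 611 ± 63.8 RPKM (SD, n = 3) to 1087 ± 148 RPKM (n = 2) in DED1 cells and from 528 ± 41.9 to 967 ± 208 RPKM in DBP1 cells, by 0.83 and 0.86 log2 units (limma adjusted p = 0.00147 and 0.0016).

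ERG25 is the third enzyme that rose in both strains in both assays with no repeat of the analysis ending a call. Its mRNA in DED1 cells was 600, 644 and 523 RPKM at 30C and 970 and 1050 RPKM at 37C, and in DBP1 cells 670, 612 and 587 RPKM at 30C and 851 and 898 RPKM at 37C. All cultures at 37C lay above those at 30C, with a rise of 0.78 log2 units in DED1 cells (95% CI 0.55 to 1.01, limma adjusted p = 0.00037) and 0.49 in DBP1 cells (0.26 to 0.72, 0.00453). Footprints on ERG25 rose by 0.83 and 0.52 log2 units and reached 1554 ± 176 RPKM in DED1 cells at 37C (SD, n = 2), the highest footprint level of any of the 10 enzymes in any group.

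ERG1, the epoxidase that adds oxygen to squalene ahead of ring closure, rose in both strains too. Its mRNA was 417, 440 and 359 RPKM at 30C and 630 and 593 RPKM at 37C in DED1 cells. In DBP1 cells it was 461, 374 and 376 RPKM at 30C and 564 and 498 RPKM at 37C, so that culture 1 at 30C came close to culture 2 at 37C. The rises were 0.60 log2 units in DED1 cells (95% CI 0.33 to 0.87, limma adjusted p = 0.00301) and 0.40 in DBP1 cells (0.13 to 0.67, 0.0244). In DBP1 cells the mRNA call ended without culture 2 or 3 at 30C or culture 1 at 37C (limma adjusted p = 0.0704, 0.0677 and 0.141), and the footprint call, a rise of 0.41 with an adjusted p of 0.0366, ended without the same cultures (0.0983, 0.097 and 0.232).

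ERG5 and HMG1 rose in DED1 cells and did not pass the test in DBP1 cells. ERG5 mRNA was 335, 334 and 282 RPKM at 30C and 442 and 428 RPKM at 37C in DED1 cells, a rise of 0.46 log2 units (95% CI 0.23 to 0.69, limma adjusted p = 0.00499). In DBP1 cells it was 357, 340 and 306 RPKM at 30C and 346 and 319 RPKM at 37C, which overlapped, with a difference of -0.01 (-0.24 to 0.23). ERG5 footprints rose by 0.66 log2 units in DED1 cells (limma adjusted p = 0.000828) and differed by 0.18 in DBP1 cells (-0.06 to 0.41, adjusted p = 0.206). HMG1 mRNA was 180, 175 and 143 RPKM at 30C and 284 and 253 RPKM at 37C in DED1 cells, a rise of 0.70 log2 units (0.42 to 0.98, limma adjusted p = 0.00167). In DBP1 cells it was 189, 185 and 161 RPKM at 30C and 237 and 205 RPKM at 37C, which did not overlap, but the difference of 0.31 (0.03 to 0.59) had an adjusted p of 0.0684. HMG1 footprints rose by 0.55 log2 units in DED1 cells (limma adjusted p = 0.00136) and differed by 0.25 in DBP1 cells (0.04 to 0.47, adjusted p = 0.0618). In DBP1 cells HMG1 passed in mRNA without culture 3 of DED1 cells at 30C (limma adjusted p = 0.0414), and in footprints without culture 1 or 2 of DED1 cells at 37C (0.0496 and 0.0495).

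Whether the strains differed in their response to 37C was tested directly, as the difference between the strains' temperature effects, and no enzyme passed in mRNA or in footprints. Of all genes, 5.23% in mRNA and 12.0% in footprints were called in either direction. The limma p-value without adjustment was under 0.05 for 2 enzymes in mRNA, beside 1291 of all 5454 genes. In footprints it was under 0.05 for 1 enzyme, beside 1494 of 4986 genes. ERG5 came nearest, with a difference of -0.47 log2 units in mRNA, lower in DBP1 cells (95% CI -0.80 to -0.14, limma adjusted p = 0.0944) and a difference of -0.48 in footprints (-0.81 to -0.15, 0.0613). HMG1 had differences of -0.39 in mRNA (-0.78 to 0.01) and -0.30 in footprints (-0.61 to 0.01). For ERG11 the interval in mRNA ran from -0.33 to 0.26.

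The remaining enzymes had smaller differences. ERG2 mRNA was 1869, 2218 and 2032 RPKM at 30C and 2328 and 2460 RPKM at 37C in DED1 cells, a rise of 0.23 log2 units (95% CI 0.04 to 0.43, limma adjusted p = 0.0477). That call ended in 7 of the 10 repeats that left out a culture, with adjusted p-values of 0.0586 to 0.212, and also with no filter on low values (0.0528), and in DBP1 cells the difference was 0.12 (-0.08 to 0.31). ERG2 footprints rose by 0.38 log2 units in DED1 cells (limma adjusted p = 0.00971) and by 0.30 in DBP1 cells (adjusted p = 0.0364). The footprint call in DED1 cells ended without culture 2 at 37C (0.0857), and that in DBP1 cells without culture 2 or 3 at 30C or culture 2 at 37C (0.0759, 0.101 and 0.289). ERG10 rose in footprints in DED1 cells by 0.23 log2 units, from 898 ± 50.5 to 1053 ± 63.7 RPKM (limma adjusted p = 0.0338), a call that ended without culture 2 or 3 at 30C or culture 2 at 37C (0.0692, 0.0879 and 0.197). ERG10 did not pass in the other temperature comparisons, where its differences lay between -0.14 and 0.12.

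ERG6 and HMG2 passed in no temperature comparison. ERG6 mRNA was 475, 467 and 428 RPKM at 30C and 454 and 485 RPKM at 37C in DED1 cells, and 435, 416 and 383 RPKM at 30C and 391 and 431 RPKM at 37C in DBP1 cells. These overlapped in both strains, and the 95% intervals of the difference ran from -0.16 to 0.24 and from -0.21 to 0.20 log2 units. ERG6 footprints in DED1 cells did not overlap, at 744, 742 and 691 RPKM at 30C and 784 and 805 RPKM at 37C. Their difference was 0.13 (-0.04 to 0.30, limma adjusted p = 0.173). HMG2 mRNA was 23.8, 22.1 and 19 RPKM at 30C and 25 and 18.6 RPKM at 37C in DED1 cells, with an interval of -0.37 to 0.37.

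**Figure D3:**
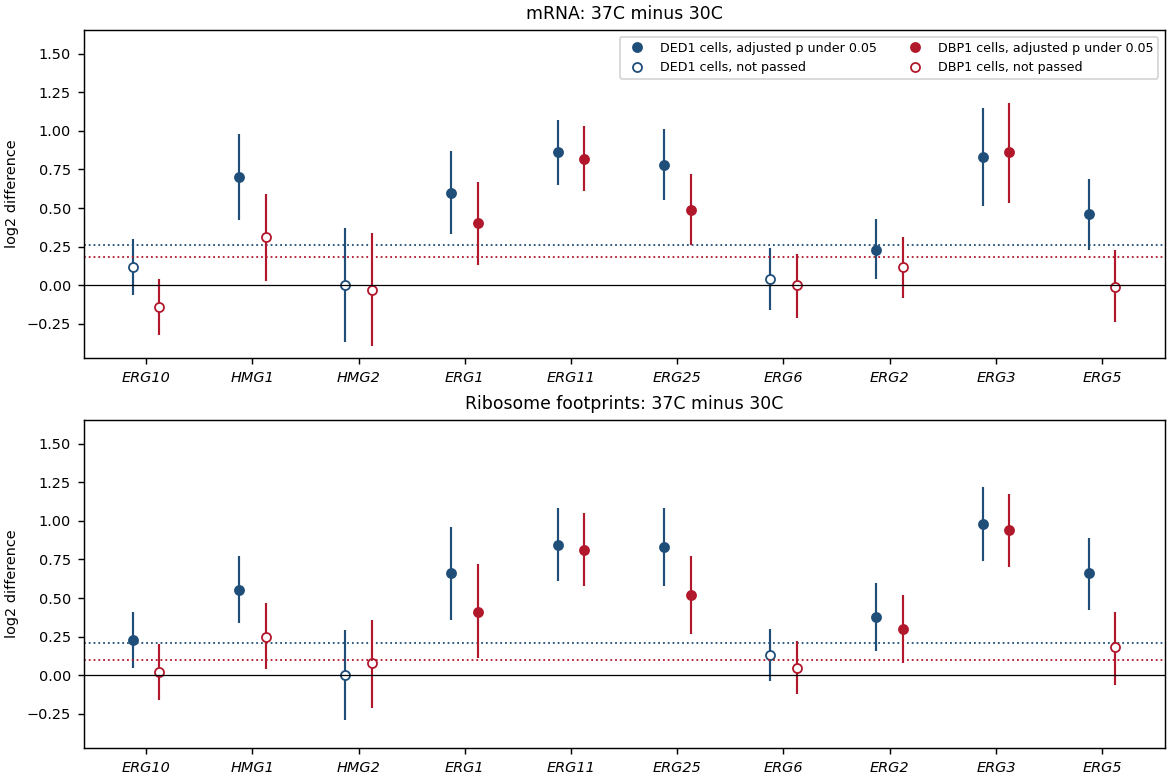
Difference between 37C and 30C in log2(RPKM + 1) for each enzyme in mRNA (top) and footprints (bottom), in DED1 cells (blue) and DBP1 cells (red), with 95% confidence intervals from limma. Filled points have an adjusted p under 0.05, and dotted lines mark the median over all genes tested. ERG11 and ERG3 lie between 0.81 and 0.98 in both strains and both assays, while ERG6 and HMG2 lie near 0.

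The paralogs HMG1 and HMG2 thus gave different values at 37C in DED1 cells. HMG2 made up 7.46 ± 0.86% of the pair's mRNA in DED1 cells at 37C (SD, n = 2), against 11.6 ± 0.28% at 30C (n = 3), and 9.17 ± 0.25% against 11.3 ± 0.72% in DBP1 cells. In footprints its share was 10.4 ± 0.71% at 37C against 14.6 ± 0.82% at 30C in DED1 cells, and 14.4 ± 1.9% against 15.9 ± 0.15% in DBP1 cells. The difference in log2(HMG2/HMG1) between temperatures in DED1 cells was -0.70 in mRNA and -0.56 in footprints, with groups that did not overlap. In DBP1 cells it was -0.34 in mRNA and -0.18 in footprints, also without overlap, though narrowly in footprints. For each of these differences p was 0.2 by an exact permutation test (two-sided), which is the smallest p that 3 cultures against 2 allow here. Of 8 such comparisons, between temperatures and between strains in both assays, the smallest adjusted p was 0.32. With these group sizes no adjusted p could have fallen under 0.05, so the test could not decide whether the ratios differed.

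RPKM values were scaled to the library total, and on that scale the median over all genes was itself higher at 37C. With libraries rescaled by median-of-ratios factors, the median over all genes moved from 0.26 to 0.00 log2 units in mRNA and from 0.21 to -0.01 in footprints in DED1 cells, and from 0.18 to 0.02 and from 0.10 to 0.02 in DBP1 cells. Genes called higher and lower in mRNA then changed from 2349 and 560 to 925 and 1180 in DED1 cells and from 1635 and 715 to 713 and 1049 in DBP1 cells. In footprints they changed from 1942 and 679 to 1002 and 1196 in DED1 cells and from 1059 and 879 to 761 and 1040 in DBP1 cells. Relative to that median ERG11, ERG25 and ERG3 still rose in both strains and both assays. ERG11 mRNA then rose by 0.59 log2 units in DED1 cells and 0.66 in DBP1 cells (limma adjusted p = 0.0013 and 0.00072), ERG3 mRNA by 0.56 and 0.69 (0.0111 and 0.00428) and ERG25 mRNA by 0.51 and 0.33 (0.0033 and 0.0317). HMG1 kept its rise in DED1 cells in both assays, at 0.43 in mRNA and 0.33 in footprints, and ERG1 and ERG5 kept theirs in footprints of DED1 cells, at 0.43 each. The ERG1 mRNA rises no longer passed in either strain (0.32 and 0.23, limma adjusted p = 0.0662 and 0.183), nor did ERG1 footprints in DBP1 cells (0.33, 0.0629), ERG5 mRNA in DED1 cells (0.19, 0.178) or ERG10 footprints in DED1 cells (0.00, 0.979). The ERG2 footprint rises did not pass either (0.16 and 0.22, limma adjusted p = 0.286 and 0.162), and its mRNA difference in DED1 cells turned to -0.04 (limma adjusted p = 0.764). ERG10 mRNA, which had not passed before, fell by 0.30 log2 units in DBP1 cells (limma adjusted p = 0.0144). ERG6 mRNA then differed by -0.23 in DED1 cells (95% CI -0.43 to -0.04, limma adjusted p = 0.0604) and by -0.17 in DBP1 cells (0.174). HMG2 mRNA differed by -0.26 and -0.18 (0.238 and 0.429), so neither gene was called.

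The enzymes were also summed as a share of all mapped reads. The 10 enzymes took 0.624 ± 0.043% of mapped mRNA reads in DED1 cells at 30C and 0.618 ± 0.028% in DBP1 cells (SD, n = 3). At 37C they took 0.872 ± 0.0051% in DED1 cells and 0.762 ± 0.015% in DBP1 cells (SD, n = 2). Footprint shares were 0.606 ± 0.045% and 0.593 ± 0.025% at 30C and 0.902 ± 0.0055% and 0.764 ± 0.016% at 37C. The strains overlapped at 30C in both assays and did not overlap at 37C, where DED1 cells were higher.

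**Figure D4:**
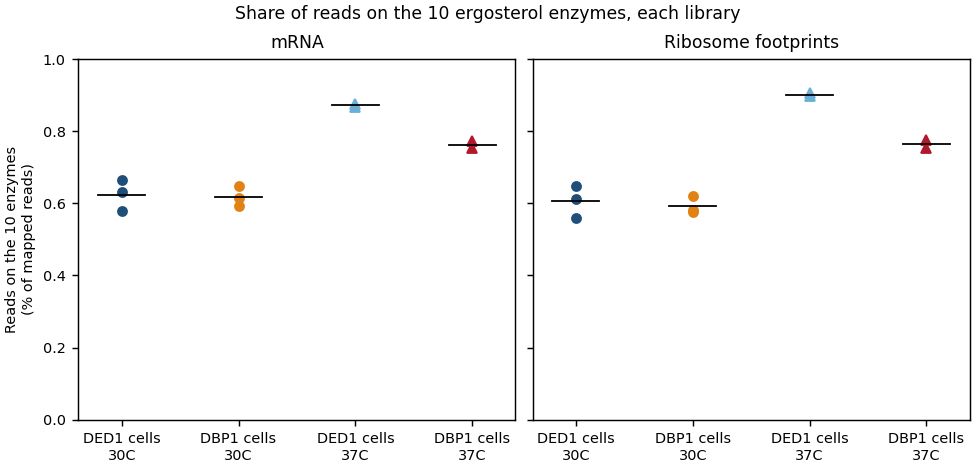
Percent of all mapped reads that fall on the 10 enzymes in each library, for mRNA and footprints, by strain and temperature. The libraries at 30C lie between 0.559 and 0.664% and those at 37C between 0.752 and 0.906%.

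The helicase swap itself, the comparison of DBP1 with DED1 cells, changed no enzyme past the test at either temperature. By limma 0 of 10 were called in mRNA, where 9.30% of all genes were called in either direction at 30C and 0.0550% at 37C. In footprints 0 of 10 were called, where 13.5% of all genes were called at 30C and 0.963% at 37C. Without adjustment, p was under 0.05 for 0 enzymes at 30C and 2 at 37C in mRNA, beside 1383 and 576 of all 5454 genes. In footprints it was under 0.05 for 2 and 4 enzymes, beside 1544 and 822 of 4986 genes. At 30C the differences in mRNA ran from -0.21 (ERG3) to 0.11 (HMG1) log2 units, with a median of 0.04 beside 0.04 over all genes, and every 95% interval included 0.

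ERG3 footprints at 30C came nearest to a call, at 496, 577 and 487 RPKM in DED1 cells and 444, 409 and 411 RPKM in DBP1 cells. The groups did not overlap, and the difference was -0.30 log2 units (95% CI -0.51 to -0.09, limma adjusted p = 0.0654). It passed with median-of-ratios scaling (adjusted p = 0.0495) and without culture 1 or 2 of DBP1 cells at 37C (0.049 for each). ERG6 footprints did not overlap either, at 744, 742 and 691 RPKM in DED1 cells and 669, 625 and 647 RPKM in DBP1 cells, with a difference of -0.17 (-0.32 to -0.01, adjusted p = 0.137).

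At 37C the enzymes lay lower in DBP1 cells as a rule, without passing the test. In both assays 9 of 10 differences were below 0, with a median of -0.20 log2 units in mRNA and -0.25 in footprints, beside -0.05 and -0.08 over all genes. The share of all genes below 0 was not counted. The strains' cultures, 2 a group, did not overlap for 7 of 10 enzymes in each assay, all 7 lower in DBP1 cells. Of all genes tested, 40.1% in mRNA and 47.3% in footprints did not overlap in either direction, and 26.6% and 33.9% did not overlap and were lower in DBP1 cells. ERG5 differed most in mRNA, with 442 and 428 RPKM in DED1 cells and 346 and 319 RPKM in DBP1 cells, a difference of -0.39 (95% CI -0.64 to -0.13, limma adjusted p = 0.236). In footprints it gave 690 and 623 RPKM against 521 and 484 RPKM, a difference of -0.38 (-0.64 to -0.13, 0.142). HMG1 footprints differed by -0.35 (-0.59 to -0.11, 0.148) and ERG3 footprints by -0.34 (-0.60 to -0.08, 0.186). The exception was HMG2, with 0.04 in mRNA (-0.36 to 0.45) and 0.18 in footprints (-0.14 to 0.49). With median-of-ratios scaling the medians over all genes were 0.00 in mRNA and -0.01 in footprints. The enzymes then ran from -0.34 (ERG5) to 0.10 (HMG2) in mRNA, with ERG11 at 0.02. In footprints they ran from -0.31 (ERG5) to 0.25 (HMG2), and no enzyme was called in either assay. These comparisons share their DED1 cultures at 37C with the temperature comparison in DED1 cells, so both sets of values rest in part on the same libraries.

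**Figure D5:**
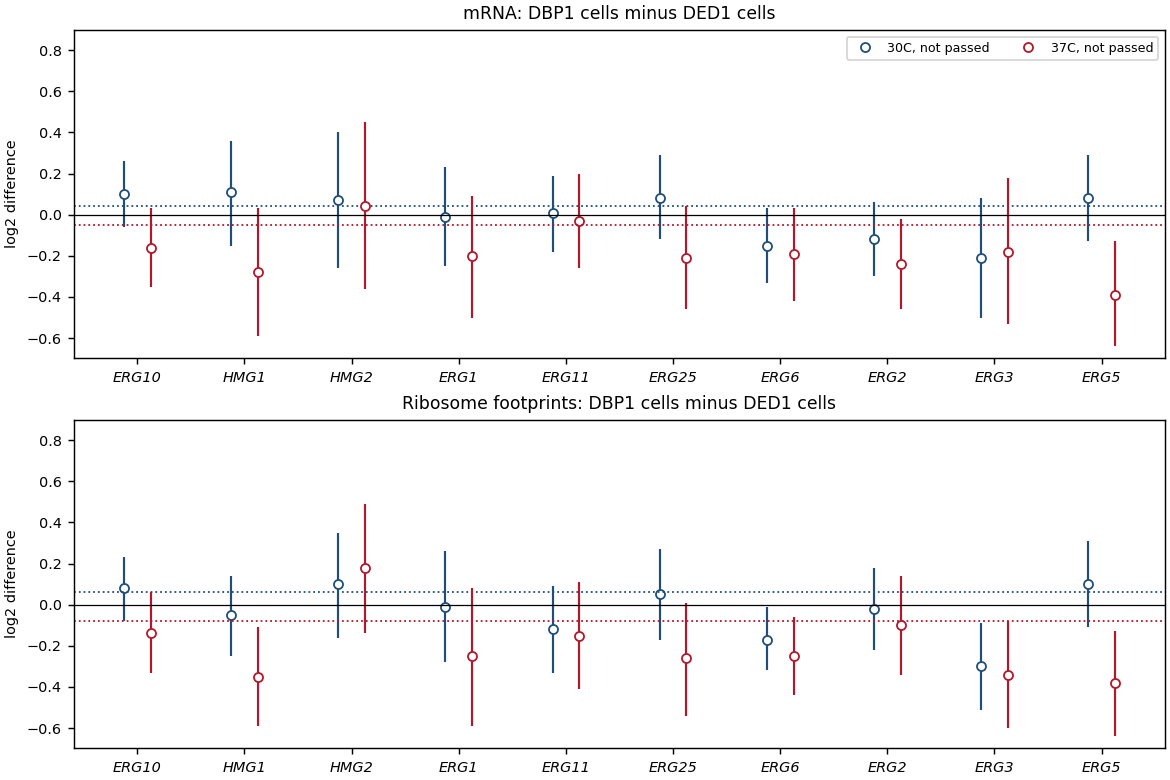
Difference between DBP1 and DED1 cells in log2(RPKM + 1) for each enzyme in mRNA (top) and footprints (bottom), at 30C (blue) and 37C (red), with 95% confidence intervals from limma. No point has an adjusted p under 0.05, and dotted lines mark the median over all genes tested. At 37C 9 of 10 points lie below 0 in each assay, from -0.39 to -0.03, where the medians over all genes are -0.05 and -0.08.

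Translation efficiency of the enzymes was not called changed in any comparison. By limma 0 of 10 passed between strains at 30C and at 37C, where 0.0402% and 0.0201% of all genes were called, and 0 of 10 between temperatures in DED1 and in DBP1 cells, where 0.985% and 1.02% were called. For the difference between the strains' temperature effects 0 of 10 enzymes and 0% of all genes passed. In this fit, which does not pair the libraries of a culture, the limma p-value without adjustment was under 0.05 for 0 enzymes in all 5. Of all 4977 genes, 109 to 598 were under 0.05 in a comparison. The 95% intervals for ERG11 ran from -0.31 to 0.28 log2 units between temperatures in DED1 cells and from -0.39 to 0.14 between strains at 30C. ERG5 efficiency was 1.28, 1.36 and 1.32 at 30C and 1.56 and 1.46 at 37C in DED1 cells, which did not overlap, and the difference of 0.20 (-0.12 to 0.51) had an adjusted p of 0.697. When footprints and mRNA of the same culture were paired, the interval for ERG5 narrowed to 0.05 to 0.34, and no enzyme was called. Between temperatures, limma's p for ERG5 was then 0.0114 in DED1 cells (adjusted p = 0.101) and 0.0168 in DBP1 cells (adjusted p = 0.127). For ERG2 in DBP1 cells it was 0.0359 (adjusted p = 0.195). The shares of all genes above are from the unpaired fit, and those of the paired fit are not given here.

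Of the pathway's other genes, 2 lists were measured, and their counts at 37C stand beside the 43.1% and 30.0% of all genes called higher in mRNA in DED1 and DBP1 cells and the 38.9% and 21.2% in footprints. Of 6 further genes from HMG-CoA to farnesyl diphosphate, 3 rose and none fell in mRNA in DED1 cells, and 1 rose in DBP1 cells. In footprints 4 rose in DED1 cells and 5 in DBP1 cells. ERG12, the mevalonate kinase, rose in all 4, with mRNA from 179 ± 13.2 to 277 ± 4.51 RPKM in DED1 cells (SD, n = 3 and 2), by 0.63 log2 units (limma adjusted p = 0.000562), and by 0.31 in DBP1 cells. ERG20, the farnesyl diphosphate synthase, rose in DED1 cells in mRNA by 0.43 and in footprints by 0.52. Of 8 further genes of the sterol branch, 2 rose in mRNA in DED1 cells, ERG29 by 0.49 and the squalene synthase ERG9 by 0.25 log2 units. Both calls ended without any 1 of several cultures, ERG29 without each of the 5 DED1 cultures (limma adjusted p = 0.0595 to 0.216) and ERG9 in 7 of 10 such repeats (0.0566 to 0.158). In DBP1 cells 1 of them rose in mRNA, ERG29 by 0.54, and 1 fell, the last reductase ERG4, by 0.41. The ERG29 call there ended without culture 2 or 3 at 30C or culture 2 at 37C of DBP1 cells (limma adjusted p = 0.0519, 0.0886 and 0.327), that of ERG4 without culture 1 at 37C (0.0807), and that of ERG12 mRNA in DBP1 cells without the same culture (0.137). In footprints 6 of these 8 rose in DED1 cells, among them the C-3 sterol dehydrogenase ERG26 by 0.49, and 1 in DBP1 cells, ERG29 by 0.61. None of these 14 genes was called between the strains at either temperature in mRNA or footprints by limma. Without adjustment p was under 0.05 at 37C for 2 of 6 and 1 of 8 in mRNA and for 2 of 6 and 3 of 8 in footprints. Of all genes, 576 of 5454 and 822 of 4986 were under 0.05 there. At 30C it was under 0.05 for 0 in mRNA and for 1 of 6 and 0 of 8 in footprints, beside 1383 and 1544 of all genes. With median-of-ratios scaling, calls in these 14 genes came in mRNA to ERG12 higher and ERG4 lower in DED1 cells, and to ERG4 and ERG28 lower in DBP1 cells. In footprints they came to ERG12, ERG20, ERG26 and ERG29 higher in DED1 cells, and to ERG12 and ERG29 higher and ERG4 lower in DBP1 cells. The counts of all genes called with that scaling are those given above.

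Among 5 regulators of sterol and oxygen response genes, UPC2, the factor that activates ERG genes when sterol is low, rose at 37C in both strains. Its mRNA at 30C was 18.8 ± 0.738 RPKM in DED1 cells and in DBP1 cells 18.6 ± 0.403 RPKM (SD, n = 3). At 37C they had 26.8 ± 0.442 and 28.4 ± 0.824 RPKM (n = 2), a rise of 0.49 and 0.58 log2 units (limma adjusted p = 0.00193 and 0.00109). UPC2 footprints rose by 0.76 and 0.83 log2 units, from 9.18 ± 1.56 to 16.1 ± 0.776 RPKM in DED1 cells and from 8.36 ± 0.91 to 15.6 ± 0.988 RPKM in DBP1 cells. Its paralog ECM22 did not pass, at 0.47 and 0.54 log2 units in mRNA (limma adjusted p = 0.118 and 0.0847), though it did in each strain when 1 DED1 culture at 30C, culture 1 and culture 3 in turn, was left out (0.0491 and 0.0312). HAP1, the haem-dependent activator, rose in mRNA by 0.62 and 0.71 log2 units. The call in DED1 cells ended without culture 1 at 37C (limma adjusted p = 0.06). Over the list, 2 of 5 rose in mRNA in DED1 cells and 3 in DBP1 cells, where the third was the repressor MOT3, and none fell. In footprints 2 rose in DED1 cells, while in DBP1 cells UPC2 rose and the repressors MOT3 and ROX1 fell. Of all genes, 43.1% were called higher in mRNA in DED1 cells and 30.0% in DBP1 cells, and 10.3% and 13.1% lower. In footprints 38.9% and 21.2% were called higher, and 13.6% and 17.6% lower. The MOT3 footprint call ended without any 1 of the 5 DBP1 cultures (limma adjusted p = 0.0612 to 0.214), and its mRNA call without culture 2 at 37C (0.0552). The ROX1 call ended in 6 of 10 repeats that left out a culture (0.0543 to 0.166). With median-of-ratios scaling the UPC2 and HAP1 rises in mRNA no longer passed in DED1 cells (adjusted p = 0.0694 and 0.0722) and did in DBP1 cells, and the UPC2 footprint rises passed in both strains, at 0.55 and 0.76 log2 units. The MOT3 mRNA rise in DBP1 cells also ended with that scaling (0.21, adjusted p = 0.101), and MOT3 footprints then fell in DED1 cells as well, by 0.28 (0.0308).

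Genes that serve the oxygen-using enzymes with electrons and haem split in direction. Of 11, 4 rose and 2 fell in mRNA in DED1 cells at 37C, and 3 rose and 4 fell in DBP1 cells. In footprints 3 rose and 3 fell in DED1 cells and 3 rose and 7 fell in DBP1 cells. Of all genes, 43.1% were called higher and 10.3% lower in mRNA of DED1 cells, and 30.0% and 13.1% in DBP1 cells. The shares in footprints were 38.9% and 13.6% in DED1 cells and 21.2% and 17.6% in DBP1 cells. DAP1, which binds haem and stabilises Erg11, rose in footprints from 162 ± 20.6 to 322 ± 15.4 RPKM in DED1 cells (SD, n = 3 and 2), by 1.0 log2 unit, and by 0.58 in DBP1 cells. NCP1, the reductase that feeds electrons to the P450 enzymes, rose in mRNA by 0.47 log2 units in DED1 cells and 0.69 in DBP1 cells. With median-of-ratios scaling its rise in DED1 cells no longer passed (0.20, limma adjusted p = 0.11) and that in DBP1 cells did (0.53, 0.00179). NCP1 footprints with that scaling rose in DBP1 cells and differed by -0.05 in DED1 cells (limma adjusted p = 0.626). The haem synthesis genes HEM2 and HEM12 fell in mRNA in both strains, HEM2 by 0.32 log2 units in DED1 cells and by 0.62 in DBP1 cells. In DED1 cells the HEM2 call ended without culture 1 at 37C (limma adjusted p = 0.144) and the HEM12 call without culture 2 at 37C (0.0547). HEM13, the coproporphyrinogen oxidase, was the only gene of the 11 called between strains at 37C, with footprints of 155 ± 9.69 RPKM (DED1) against 102 ± 5.08 RPKM (DBP1, SD, n = 2), a difference of -0.60 log2 units (limma adjusted p = 0.0211). That call ended without culture 2 of DED1 cells at 30C, culture 1 or 2 of DED1 cells at 37C or culture 2 of DBP1 cells at 37C (0.0586, 0.106, 0.0829 and 0.0785). With median-of-ratios scaling the counts of the 11 moved to 2 higher and 3 lower in mRNA in DED1 cells and 3 and 4 in DBP1 cells, and in footprints to 3 and 5 in DED1 cells and 2 and 7 in DBP1 cells. DAP1 was among the higher and HEM2 and HEM12 among the lower in all 4. With that scaling 925 of all 5450 genes were called higher and 1180 lower in mRNA of DED1 cells, and 713 and 1049 in DBP1 cells. In footprints, of 4987 genes, these were 1002 and 1196 in DED1 cells and 761 and 1040 in DBP1 cells.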

How the data were processed

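The authors deposited a table of RPKM values for mRNA and footprint libraries. Per the submitters' processing notes, CASAVA, bcl2fastq 2.17 and Bowtie2 were used. Which build reads were mapped to, how they were counted and how reads common to paralogs were assigned is not given in the sources used here. In the table, the second header line miswrites a strain number in 2 columns and calls 1 mRNA column a footprint column, and its first line, which matches the sample labels, was followed. Gene names came from RefSeq's annotation of strain S288C, release R64, which matched 5994 of 6679 genes. Depth and reads per gene were derived from the RPKM step that a read makes, taking 60 nt off each coding length.

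In R 4.3.3, limma 3.58.1 was fitted to log2(RPKM + 1), with 1 mean per group, eBayes with a trend and two-sided tests. A gene was tested where its mean was at least 5 RPKM in the assay, which left 5454 genes in mRNA, 4986 in footprints and 4977 for translation efficiency. Efficiency was the footprint effect minus the mRNA effect in a model of all 20 libraries. The procedure was tested on simulated data. HMG2/HMG1 ratios were compared by exact permutation tests in SciPy 1.17.1. Alternatives were pseudocounts of 0.1 and 5, no filter and a filter at 20 RPKM, median-of-ratios scaling, a replicate block, and leaving out each culture in turn.

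Deviations from group means of mRNA and footprint libraries with the same strain, temperature and number correlated in all 10 pairs, at 0.388 to 0.767 across genes, so these libraries were paired in the blocked fit of efficiency.

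The members and the gene lists were chosen with earlier results of these data known. The text names all 10 enzymes, up to 4 called genes of a list per comparison by smallest adjusted p, the sterol branch and the regulators UPC2, ECM22 and HAP1, and the 10 genes nearest in profile. No sequences are shown, since none were used here.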

Additional observations from a re-analysis of the deposited data

Results flagged for a closer look

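The difference between the strains' responses to 37C passed limma's test for 6 genes of the neighbouring lists, 1 of 70 tested in mRNA and 5 of 63 in footprints. These shares, 1.43% and 7.94%, lie below the 5.23% and 12.0% of all genes called. For each, the value is the temperature effect in DBP1 cells minus that in DED1 cells. In mRNA it was -0.50 log2 units for HEM15, the ferrochelatase that ends haem synthesis (adjusted p = 0.0392). In footprints it was -0.47 for HEM13 (adjusted p = 0.0275), -0.82 for NSG2 (0.0102), -0.75 for ELO1, a fatty acid elongase (0.0195), -0.70 for SAY1, a sterol deacetylase (0.0435), and 0.51 for ATF2, a sterol acetyltransferase (0.0494).

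NSG2 footprints went from 97 ± 5.27 to 126 ± 4.02 RPKM in DED1 cells and from 117 ± 8.18 to 86 ± 12 RPKM in DBP1 cells (SD, n = 3 and 2). ELO1 footprints went from 120 ± 10.1 to 160 ± 22.4 RPKM in DED1 cells and from 178 ± 14.4 to 140 ± 6.8 RPKM in DBP1 cells. The NSG2 rise in DED1 cells was not called without either culture at 37C in turn (adjusted p = 0.0508 and 0.075), and with median-of-ratios scaling it was 0.15 (0.291). The call of the NSG2 difference between strains held under all 16 alternatives, and that of ELO1 ended without culture 2 of DED1 cells at 37C or culture 1 of DBP1 cells at 37C (adjusted p = 0.0629 and 0.0527). The HEM15 call ended in all 10 repeats that left out a culture (adjusted p = 0.0534 to 0.147), that of SAY1 in 8 (0.0502 to 0.143), that of ATF2 in 9 (0.0595 to 0.122) and that of HEM13 in 5 (0.0524 to 0.104). With median-of-ratios scaling the HEM15, HEM13 and SAY1 calls also ended (0.11, 0.0771 and 0.0644).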

How the results depend on the processing

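Of 2400 repeats of a single enzyme's comparison under the 16 alternatives, 2361 kept their side of the threshold, 28 lost a call, 10 gained one and 1 reversed. In 143 repeats a difference called in neither fit changed sign. With median-of-ratios scaling the counts of enzymes called that moved most went to 4 in mRNA between temperatures in DED1 cells and 3 in footprints between temperatures in DBP1 cells. In footprints between strains at 30C the count went to 1, ERG3 (adjusted p = 0.0495). Other comparisons kept most of their calls: in footprints of DED1 cells ERG2 and ERG10 lost theirs. In mRNA of DBP1 cells ERG1 lost its call and ERG10 gained one, as lower. The ERG2 mRNA difference in DED1 cells reversed to -0.04. That scaling also moved the genes called higher and lower in footprints between strains at 30C from 518 and 154 to 370 and 248, and for the difference between temperature effects from 95 and 501 to 187 and 298. For efficiency between temperatures they moved from 7 and 42 to 11 and 26 in DED1 cells and from 3 and 48 to 8 and 29 in DBP1 cells.

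Leaving out a culture gave 0 to 1 called enzymes in footprints between strains at 30C (ERG3, adjusted p = 0.049 without culture 1 or 2 of DBP1 cells at 37C) and 3 to 6 in footprints between temperatures in DBP1 cells, with 3 without culture 2 or 3 of DBP1 cells at 30C. It moved the difference in log2(HMG2/HMG1) between temperatures over -0.83 to -0.57 in mRNA of DED1 cells and over -0.34 to -0.02 in footprints of DBP1 cells.

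Deviations of same-numbered libraries of the strains correlated at 0.448 in mRNA and 0.512 in footprints at 37C, where both pairs share 1 value, and at -0.257 to 0.478 over the 3 pairs of each assay at 30C. Not every pair passed 0.1, so the numbers were not taken as pairing the strains. With the replicate number as a block, 1 enzyme, ERG3, was called in footprints between strains at 30C (adjusted p = 0.0416). For the difference between temperature effects 1, ERG5, was called in mRNA and in footprints (0.0292 and 0.0227). The shares of all genes called with this block are not given here. Whether these calls exceed that background was therefore not tested. Among list genes the block ended the calls of ERG9 and TIR2 in mRNA of DED1 cells (0.0582 and 0.0573), of MOT3 and ROX1 in footprints of DBP1 cells (0.0699 and 0.105), and of the ATF2 difference between temperature effects (0.0552). Of 59 results of list genes named in the text, 29 changed side of the threshold under at least 1 alternative. The ERG9 mRNA difference in DED1 cells reversed to -0.02 with median-of-ratios scaling. Pairing mRNA and footprints of a culture changed no efficiency call of the enzymes. In mRNA, HMG2, with 226 to 744 reads, had the widest intervals of the 10.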

Other observations

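Genes that handle finished sterol were counted at 37C beside the shares of all genes called higher, 43.1% in mRNA and 38.9% in footprints in DED1 cells and 30.0% and 21.2% in DBP1 cells. The shares called lower were 10.3% and 13.6%, and 13.1% and 17.6%. Of 11 genes of sterol esters and transport, 8 rose and none fell in mRNA in DED1 cells and 5 rose and none fell in DBP1 cells. In footprints, 7 of the 10 tested rose in DED1 cells and 6 in DBP1 cells. ARE1, a sterol acyltransferase that makes sterol esters for storage, rose in mRNA from 32 ± 4.87 to 58 ± 5.94 RPKM in DED1 cells (SD, n = 3 and 2), by 0.84 log2 units, and by 0.86 in DBP1 cells (limma adjusted p = 0.000683 and 0.000775). ATF2, an acetyltransferase that acts on sterols, was also lower in DBP1 than in DED1 cells at 30C, with 29.1 ± 0.878 against 41.3 ± 0.927 RPKM of mRNA (SD, n = 3), a difference of -0.49 (limma adjusted p = 0.00523). Of 7 genes that degrade HMG-CoA reductase or guard it, 5 rose in mRNA in DED1 cells and 4 rose and 1 fell in DBP1 cells, and in footprints 5 rose in DED1 cells and 3 rose and 1 fell in DBP1 cells. The gene that fell was NSG2, a chaperone of the reductase, in both assays. UBC7, a ubiquitin-conjugating enzyme of the endoplasmic reticulum, rose in mRNA by 0.64 log2 units in DED1 cells and 0.37 in DBP1 cells. Calls in DBP1 cells ended without culture 1 at 30C or culture 2 at 37C for UBC7 mRNA (limma adjusted p = 0.0643 and 0.14), and without culture 1 at 37C for NSG2 footprints (0.0767). The NSG2 mRNA call ended in 5 of 10 repeats that left out a culture (0.0518 to 0.308). With median-of-ratios scaling the sterol ester and transport genes called came to 4 higher in mRNA in DED1 cells and 3 in DBP1 cells, and in footprints to 5 higher in DED1 cells and 6 higher and 1, NCR1, lower in DBP1 cells. Those of the reductase list came to 3 higher and 1 lower in mRNA of DED1 cells and 1 lower in DBP1 cells. In footprints they came to 2 higher and 1 lower and to 1 higher and 1 lower. With that scaling 925 of all 5450 genes were called higher and 1180 lower in mRNA of DED1 cells, and 713 and 1049 in DBP1 cells. In footprints, of 4987 genes, these were 1002 and 1196 in DED1 cells and 761 and 1040 in DBP1 cells.

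Neighbouring lipid genes, read beside the same shares, did not follow a common direction. Of 9 fatty acid synthesis genes, 1 rose in mRNA in DED1 cells and 2 rose and 2 fell in DBP1 cells, and of the 8 tested in footprints 1 rose and 3 fell in DED1 cells and 2 rose and 4 fell in DBP1 cells. ACC1, the acetyl-CoA carboxylase, fell in footprints by 0.96 log2 units in DED1 cells and by 1.19 in DBP1 cells. Of 7 other users of farnesyl diphosphate, 3 rose in mRNA in DED1 cells and 2 rose and 1 fell in DBP1 cells, and of the 6 tested in footprints 2 rose in DED1 cells and 1 rose and 2 fell in DBP1 cells. Of 6 anaerobic cell wall genes, 2 passed the filter in mRNA and 1 in footprints, and TIR2 rose in mRNA in DED1 cells by 0.7 log2 units, a call that ended without culture 2 or 3 at 30C or either culture at 37C (limma adjusted p = 0.0518, 0.101, 0.16 and 0.0843) and with median-of-ratios scaling (0.46, adjusted p = 0.152). With median-of-ratios scaling the genes called lower in DED1 and DBP1 cells were 1180 and 1049 of all 5450 in mRNA. In footprints they were 1196 and 1040 of 4987. Those called higher were 925 and 713 in mRNA and 1002 and 761 in footprints. Beside these, the fatty acid genes called lower came to 5 in mRNA of DED1 cells, 3 in DBP1 cells and 4 in footprints of each strain. Higher were 1 in mRNA of DED1 cells, 0 in DBP1 cells, and 0 and 1 in footprints. The other users of farnesyl diphosphate called then came to 1 higher and 2 lower (COQ1 and RER2) in mRNA of DED1 cells and 1 lower (COQ1) in DBP1 cells, and in footprints to 1 lower (COQ1) in DED1 cells and 2 lower (COQ1 and RAM2) in DBP1 cells.

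The 10 genes nearest in mRNA to the mean profile of the enzymes over the 4 groups were TFB3, SEC31, BIK1, SEA4, PEX28, SBE2, CAL4, SMD3, MOB1 and AIR2, at root mean square differences of 0.00683 to 0.0227 log2 units. The median over 4621 genes was 0.175, and the enzymes themselves ranged from 0.0631 (ERG1) to 0.246 (ERG3). ERG6 (0.184), ERG10 (0.195), HMG2 (0.21), ERG11 (0.241) and ERG3 lay farther from their mean profile than that median. In footprints the nearest were EMC5, GWT1, SPC34, STP1, GCN20, PBP2, PEP3, GPI18, DTD1 and CYB5, at 0.00535 to 0.0253, beside a median of 0.234 over 3587 genes. The enzymes ranged there from 0.0513 (ERG1) to 0.279 (ERG3), and HMG2 (0.247) and ERG3 lay beyond that median.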
